A study of Arabidopsis thaliana with 26 samples.

Results

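The comparison sets 4 arrays of developing Arabidopsis thaliana leaves taken at 12 h against 4 arrays of the same kind of leaf taken at 2 h, 8 of the 26 arrays in the series, chosen by the times in the sample titles and not by any measured value. Both groups were wild-type Col-0, were sampled as developing leaves at insertions 19 to 21, and belonged to the treatment that the series title names as elevated CO2 with ambient light, so the 12 h and the 2 h leaves share accession, leaf position and treatment and differ in time. The labels describe growth on Humax compost in a growth room (20 °C, 50% relative humidity), a light period of 10 h, and an atmosphere given as normal. Biotin-labelled total RNA was hybridised to ATH1 arrays, which measure a transcript through a set of short oligonucleotides called a probe set. No clock time is given in the sources used here, nor which leaves were exposed to elevated CO2, nor whether replicates came from separate plants. Hours of treatment and time of day therefore cannot be told apart, and no untreated arrays were used here. The p-values of genes measure only the spread between arrays of a group, estimated over all 26 arrays, and that spread may be technical.

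A leaf's transcript levels follow the time of day. The circadian clock of plants is a set of morning and evening transcription factors that repress each other, and it times genes of light harvesting, starch turnover and growth. Leaves store starch by day and break it down by night, and when sugar runs short they turn to protein, amino acids and autophagy as sources of carbon.

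Signals below are the deposited linear values, and changes are log2 values ± SE of 12 h minus 2 h on the log2(signal + 16) scale, which understates the change of dim genes. A gene is called when limma's Benjamini-Hochberg adjusted p is below 0.05 over all 16154 probe sets tested. Whole leaf RNA was measured, so fewer cells of a type and less RNA per cell cannot be told apart. The quality values did not separate the groups beyond their spread: array medians averaged 45 ± 1.44 at 12 h and 43.9 ± 0.704 at 2 h (SD, n = 4 each, exact permutation p = 0.2, 2-sided, smallest possible 0.0286), and the cre spike-in averaged 2187 ± 250 at 12 h and 2448 ± 453 at 2 h (exact permutation p = 0.371). The 25S ribosomal RNA control averaged 88.2 ± 73.9 at 12 h and 68.7 ± 47.0 at 2 h (exact permutation p = 0.686). The actin 3'/5' ratio, a gauge of RNA integrity, averaged 1.71 ± 0.133 at 12 h and 1.85 ± 0.332 at 2 h (exact permutation p = 0.543), and for all 5 quality measures the adjusted p was 0.771. Within each group, the correlation of 2 arrays over probe sets, which are not independent of each other, was 0.973 to 0.985, and no columns were identical.

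The leaves differed widely between the times. At 12 h, 2437 probe sets (15.1% of those tested) were higher and 2175 (13.5%) were lower, 28.6% in either direction. Most of these changes were modest: 4075 of the 4612 called probe sets changed by less than 2-fold, and the median size was 0.53. Changes of at least 2-fold covered 230 probe sets higher at 12 h (1.42%) and 307 lower (1.90%). Of the 16154 probe sets tested, 2585 had every 12 h array above every 2 h array, and 2213 had every 12 h array below. Groups without overlap were thus common, and the lack of overlap given for genes below does not by itself set a gene apart. The platform table used here assigns 1 gene to 8984 of the tested probe sets, several genes to 319 and none to 6851. Of those with 1 gene, 1230 carry a name beyond a locus code, and 198 of them were higher and 147 lower at 12 h (28% called, close to the share over all probe sets). The most extreme called changes, 4.74 and -5.93, fell on probe sets that the table does not list, so they are unnamed here.

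**Figure D1:**
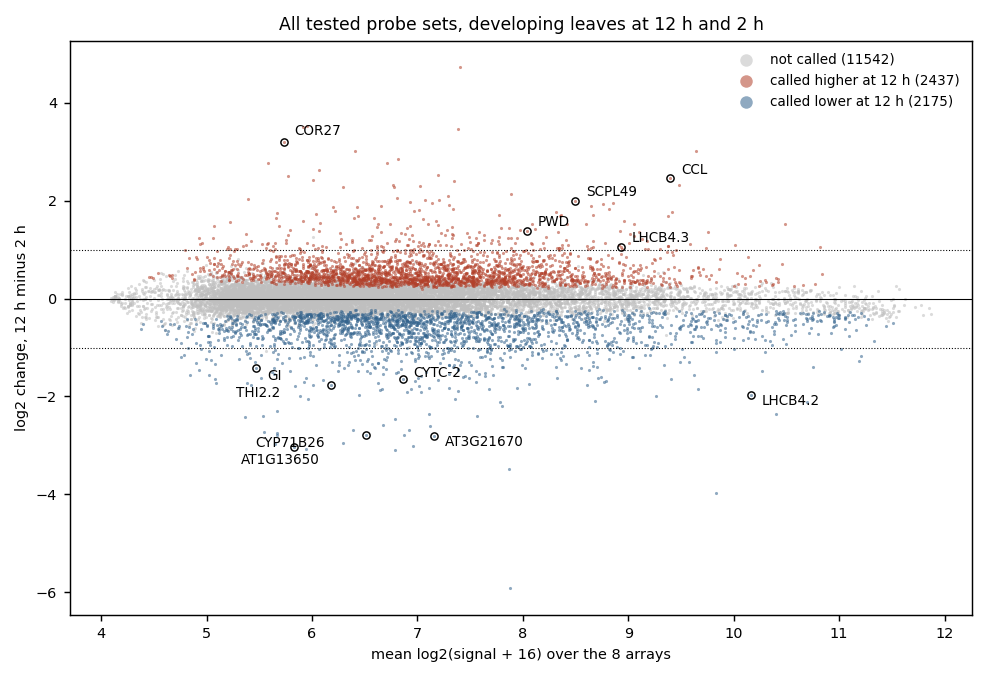
Log2 change of 12 h minus 2 h (y axis) against the mean log2(signal + 16) over the 8 arrays (x axis) for all 16154 tested probe sets, with the 2437 called higher at 12 h in red, the 2175 called lower in blue and those not called in grey. Dotted lines mark 2-fold, and 12 genes described in the text are circled, from COR27 at 3.2 to AT1G13650 at -3.03.

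COR27, a cold-regulated gene that acts on the clock and on freezing tolerance, had the highest change among the genes that could be named. It read 158, 133, 138 and 154 at 12 h, against 1.4, 1.80, 0.771 and 1.99 at 2 h. The 12 h arrays lay close together and far above the 2 h arrays, which were near the bottom of the scale (log2 change 3.2 ± 0.12, adjusted p = 4.2e-17). CCL, a transcript whose level cycles through the day, read 1543, 1701, 1554 and 1472 at 12 h, against 249, 299, 263 and 280 at 2 h (2.46 ± 0.14, adjusted p = 9.2e-14). Its groups were separated by a wide gap, and the arrays of each lay close together. GI, an evening component of the clock that controls flowering time, went the other way, with 18.8, 9.85, 12.6 and 5.35 at 12 h, against 51.1, 64, 54.1 and 57.1 at 2 h. Every 12 h array was below every 2 h array (-1.41 ± 0.12, adjusted p = 9.3e-10).

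GI was the only gene of 25 listed clock genes with a named probe set, so the core of the clock is not described by these values. Of 5 clock-associated regulators, 1 was higher, 1 was lower and 3 were not called (40% called, against 28.6% of all probe sets). TIC, a nuclear regulator needed to sustain rhythms, read 268, 332, 335 and 357 at 12 h, against 129, 129, 163 and 210 at 2 h (0.98 ± 0.16, adjusted p = 1.6e-05). The lowest 12 h array was above the highest 2 h array. XCT, named for its role in circadian timekeeping, read 48.8, 49.6, 45.9 and 43.6 at 12 h, against 71.7, 77.2, 60.7 and 73.4 at 2 h (-0.46 ± 0.11, adjusted p = 0.0016), again without overlap. LIP1, FIO1 and TKL had log2 changes of 0.05, 0.25 and 0.17 and were not called. HYH, a light-signalling transcription factor and the only member of its list with a named probe set, averaged 23.9 ± 5.48 at 12 h and 28.7 ± 3.42 at 2 h and was not called (-0.17, adjusted p = 0.41).

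**Figure D2:**
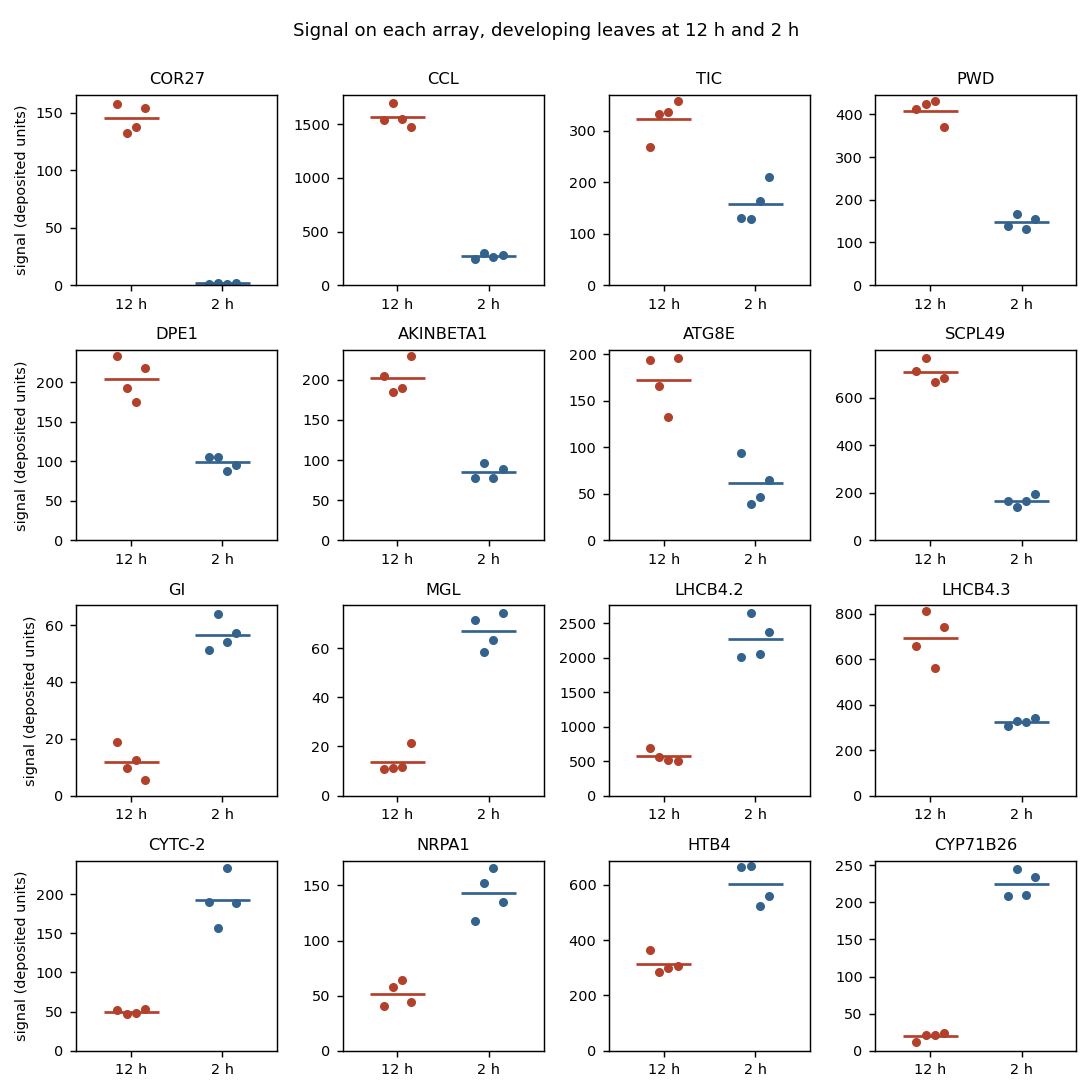
Signal in deposited units (y axes, from 0) of 16 genes on each of the 4 arrays at 12 h (red, left) and the 4 arrays at 2 h (blue, right), with a bar at each mean. In each of the 16 panels the groups do not overlap, and the 8 genes of the upper 2 rows and LHCB4.3 are higher at 12 h while the other 7 are lower.

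Most of the genes with the largest changes are known to the gene table only by a locus code. AT3G60420 read 237, 368, 250 and 306 at 12 h, against 12.2, 5.72, 54.0 and 55.1 at 2 h, where replicates 1 and 2 were much lower than replicates 3 and 4 (2.85 ± 0.35, adjusted p = 2.9e-07). AT4G32340 read 316, 250, 197 and 279 at 12 h, against 25.4, 33.6, 20.9 and 18.5 at 2 h (2.76 ± 0.15, adjusted p = 4.3e-14). AT2G23910 averaged 152 ± 24.2 at 12 h and 11.5 ± 5.96 at 2 h (2.63 ± 0.23). The 12 h arrays of both were all above their 2 h arrays, as the naming rule required. AT3G15630 (2.40), AT1G25275 (2.32), AT3G62550 (2.29), AT2G21130 (2.09) and AT4G16146 (2.07) completed the highest changes under the same naming rule, together with CYP71B22 and SCPL49, which are described with their families.

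Among the falls, AT1G13650 read 1.88, 11.8, 1.04 and 2.42 at 12 h, against 155, 222, 110 and 120 at 2 h (-3.03 ± 0.19, adjusted p = 1.1e-12). AT3G21670 read 54.9, 46.4, 20.4 and 36.7 at 12 h, against 341, 375, 402 and 339 at 2 h (-2.81 ± 0.16, adjusted p = 1.3e-13). Both were named on condition that their groups did not overlap, and AT1G13650 was near the bottom of the scale at 12 h. AT3G28220 averaged 67.6 ± 16.5 at 12 h and 423 ± 41.2 at 2 h (-2.41), and AT5G48490 averaged 184 ± 14.7 at 12 h and 837 ± 76.3 at 2 h (-2.09). AT3G58660 (-2.12), AT3G01060 (-2.05), AT1G76240 (-1.90), AT5G12110 (-1.85) and AT5G62440 (-1.82) were also among the lowest.

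Of 15 listed starch breakdown genes only 2 had a named probe set, and both were called higher at 12 h. Of 13 listed starch synthesis genes only 2 had one, and both were called lower, with overlapping groups. Over all probe sets 28.6% were called, and so few members do not describe either pathway as a whole. PWD, a dikinase that phosphorylates starch granules and so opens them to enzymes, read 412, 424, 430 and 370 at 12 h, against 139, 168, 131 and 155 at 2 h (1.38 ± 0.10, adjusted p = 3.3e-11). DPE1, which recycles short maltooligosaccharides in the chloroplast, read 233, 192, 175 and 218 at 12 h, against 106, 105, 87.4 and 95.6 at 2 h (0.94 ± 0.11, adjusted p = 9.0e-08). For both, every 12 h array was above every 2 h array. SBE2.2, a starch branching enzyme, read 125, 185, 133 and 149 at 12 h, against 226, 234, 223 and 177 at 2 h (-0.50 ± 0.18, adjusted p = 0.034), and here the highest 12 h array lay above the lowest 2 h array. APL3, a large subunit of the enzyme that makes ADP-glucose for starch, averaged 42.3 ± 4.34 at 12 h and 60.7 ± 10.0 at 2 h (-0.39 ± 0.12, adjusted p = 0.013), with overlapping groups. Neither of these falls is firm: SBE2.2 missed the threshold when 12 h replicate 1, 3 or 4 or 2 h replicate 1, 2 or 3 was left out (log2 changes -0.51 to -0.43), and APL3 when 2 h replicate 2 was left out (-0.34, adjusted p = 0.053). The 2 sucrose genes measured, the phosphate synthase ATSPS4F (0.41) and the exporter SWEET11 (0.29), were not called. ATSPS4F was called higher with array weights (0.49) and without 12 h replicate 3 (0.59).

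Of 15 listed genes that respond to sugar shortage only 3 had a named probe set. Of these 3, 2 were higher in the 12 h leaves and 1 was not called (66.7% called, against 28.6% of all probe sets). AKINBETA1, a regulatory subunit of the energy-sensing kinase SnRK1, read 205, 185, 190 and 229 at 12 h, against 78.2, 96.2, 78.2 and 89.3 at 2 h (1.1 ± 0.14, adjusted p = 3.2e-07). MCCA, a subunit of the carboxylase that breaks down leucine in mitochondria, read 53.2, 64.2, 50.5 and 54.4 at 12 h, against 24.6, 29.4, 28.2 and 27.8 at 2 h (0.72 ± 0.12, adjusted p = 4.6e-05). Neither gene had overlapping groups. IVD, the next enzyme upstream of it in leucine breakdown, averaged 45.5 ± 8.05 at 12 h and 37.7 ± 3.49 at 2 h and was not called (0.19, adjusted p = 0.17).

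Of 12 tested genes of amino acid breakdown, 4 were higher, 1 was lower and 7 were not called. They include MCCA and IVD of the preceding paragraph, so this list and the sugar shortage list share members. The share called was 41.7% against 28.6% of all probe sets, and the median log2 change 0.19 against 0.03. ALDH6B2, a dehydrogenase of valine breakdown, read 347, 351, 342 and 370 at 12 h, against 180, 131, 186 and 182 at 2 h (1.00 ± 0.13, adjusted p = 1.4e-06). ETFBETA and ETFALPHA, the subunits of the flavoprotein that takes electrons from branched-chain amino acid breakdown, rose by 0.61 ± 0.10 and 0.37 ± 0.12. ETFALPHA missed the threshold without 12 h replicate 4 or 2 h replicate 1 or 2, with log2 changes of 0.32 to 0.34. The 1 member that fell was MGL, a methionine lyase, with 10.7, 11.1, 11.7 and 21.2 at 12 h, against 71.5, 58.5, 63.2 and 74.2 at 2 h (-1.49 ± 0.14, adjusted p = 4.1e-09). Its 12 h arrays were all far below its 2 h arrays. MCCB, the partner subunit of MCCA, averaged 203 ± 24.8 at 12 h and 183 ± 46.7 at 2 h and was not called (0.17), and neither was ETFQO (0.19), which accepts the electrons carried by the flavoprotein.

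Of 16 sugar carriers tested, 3 were higher, 2 were lower and 11 were not called (31.2% called, near the 28.6% of all probe sets), and these counts were the same without any 1 array. SWEET16 and SWEET17, which let fructose and glucose cross the vacuolar membrane, were the 2 that fell. SWEET16 read 55.7, 40.3, 47.5 and 47.5 at 12 h, against 106, 127, 82.3 and 106 at 2 h (-0.92 ± 0.14, adjusted p = 1.1e-05). SWEET17 read 182, 172, 218 and 175 at 12 h, against 391, 308, 350 and 318 at 2 h (-0.82 ± 0.13, adjusted p = 1.6e-05). TMT1, which pumps monosaccharides into the vacuole, read 305, 303, 319 and 294 at 12 h, against 176, 178, 201 and 195 at 2 h (0.66 ± 0.10, adjusted p = 1.1e-05), while its relative TMT2 was not called (-0.09). None of these 3 called carriers had overlapping groups. SFP1 (0.65 ± 0.14) and SWEET4 (0.62 ± 0.12) were the other carriers that rose.

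Autophagy genes were higher at 12 h for the most part. Of 10 tested, 7 were higher, none was lower and 3 were not called (70% called, against 28.6% of all probe sets, with a median of 0.41 against 0.03). The list is mostly the ATG8 family, small ubiquitin-like proteins that are joined to lipid on the growing autophagosome. ATG8E read 193, 166, 133 and 196 at 12 h, against 93.7, 39.5, 46.9 and 65.3 at 2 h (1.32 ± 0.23, adjusted p = 6.8e-05). ATG8F read 553, 474, 462 and 554 at 12 h, against 316, 238, 248 and 322 at 2 h (0.83 ± 0.13, adjusted p = 9.5e-06). In neither gene did the groups overlap. APG8H (0.76 ± 0.10), ATG8C (0.62 ± 0.12), ATG8D (0.42 ± 0.11) and ATG8G (0.35 ± 0.11) also rose, whereas APG8A (-0.01), ATG8B (-0.29) and ATG8H (0.26) were not called. ATG3, the enzyme that hands ATG8 to its lipid, read 147, 141, 145 and 148 at 12 h, against 105, 96.4, 110 and 110 at 2 h (0.41 ± 0.09, adjusted p = 0.00065). Leaving out 1 array at a time gave 6 or 7 members higher; ATG8G was the member lost, without 12 h replicate 1 (0.31) or 2 h replicate 3 (0.30).

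Serine carboxypeptidase-like proteins, a family of vacuolar and secreted hydrolases and acyltransferases, had 5 members higher, 1 lower and 11 not called of 17 tested (35.3% called, against 28.6% of all probe sets). SCPL49, also known as carboxypeptidase Y, read 713, 768, 665 and 684 at 12 h, against 165, 139, 165 and 196 at 2 h (2.00 ± 0.14, adjusted p = 1.1e-11). Its relative scpl35 read 686, 889, 936 and 855 at 12 h, against 224, 188, 292 and 196 at 2 h (1.84 ± 0.16, adjusted p = 7.1e-10). The 12 h arrays of both genes were all well above the 2 h arrays. The members scpl46 (1.28 ± 0.21), SCPL45 (0.91 ± 0.18) and SCPL34 (0.84 ± 0.10) rose as well, and scpl50 fell by 0.38 ± 0.11. The other 11 ranged from -0.35 to 0.23, so the family held a few large changes and a majority of small ones.

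Vesicle traffic genes had small changes, with 8 of 29 higher, 1 lower and 20 not called (31.0% called, near the 28.6% of all probe sets, median 0.20). The called changes of the list did not go beyond 0.55 in size. VPS2.2 (0.55 ± 0.15) and VPS46.2 (0.53 ± 0.11), parts of the machinery that sorts membrane proteins for the vacuole, were the largest. Only 5 members were called higher without 12 h replicate 1, 12 h replicate 4 or 2 h replicate 3. Ubiquitin-specific proteases, which remove ubiquitin from proteins, had none higher, 3 lower and 9 not called of 12 (25% called, against 28.6% of all probe sets). UBP23 read 170, 182, 161 and 196 at 12 h, against 289, 360, 355 and 323 at 2 h (-0.84 ± 0.13, adjusted p = 1.5e-05), without overlap. Of 24 ubiquitin ligases and conjugating enzymes, 6 were higher, 2 were lower and 16 were not called (33.3% called, against 28.6% of all probe sets). They included the conjugating enzymes UBC20 (0.68 ± 0.12) and UBC22 (0.62 ± 0.10).

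**Figure D3:**
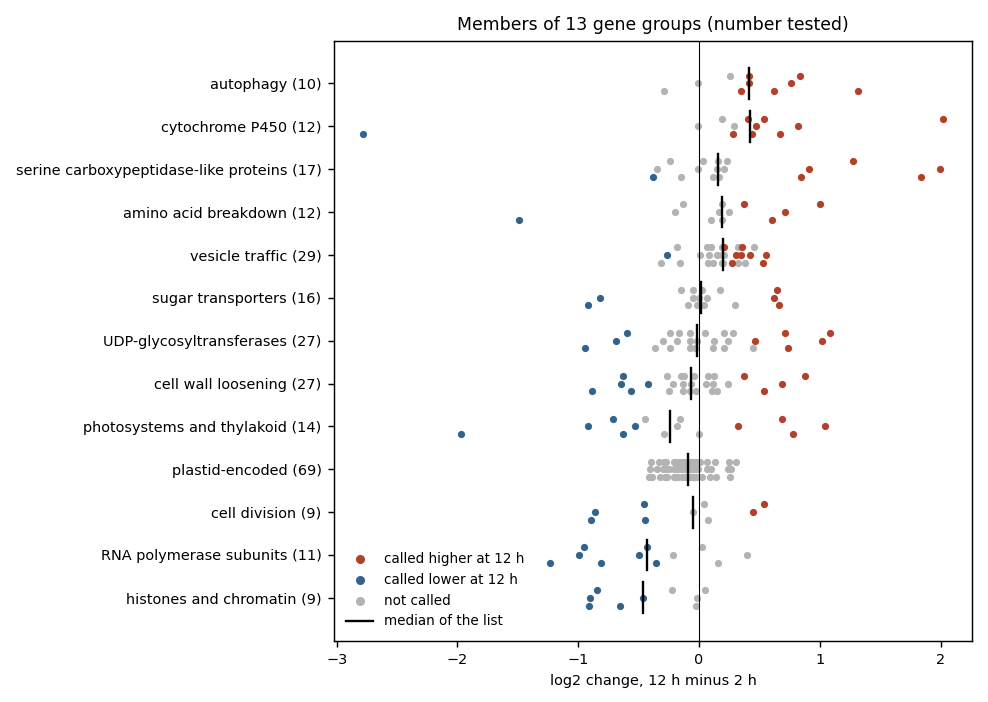
Log2 change of 12 h minus 2 h (x axis) of each tested member of 13 gene groups (rows, with the number tested), red where called higher at 12 h, blue where called lower and grey where not called, with a black bar at each group's median. Autophagy has 7 red points of 10 and no blue, RNA polymerase subunits have 7 blue of 11 and no red, and all 69 plastid-encoded genes are grey.

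Nuclear genes of the thylakoid moved in both directions. Of 14 tested, 4 were higher, 5 were lower and 5 were not called (64.3% called against 28.6% of all probe sets, median -0.24). LHCB4 proteins are minor antenna proteins of photosystem II, and their 3 genes differed. LHCB4.2 read 688, 562, 511 and 508 at 12 h, against 2008, 2649, 2054 and 2375 at 2 h (-1.97 ± 0.17, adjusted p = 1.1e-09). LHCB4.3 read 659, 811, 562 and 743 at 12 h, against 307, 330, 322 and 339 at 2 h (1.05 ± 0.11, adjusted p = 4.5e-08). The groups of either gene did not overlap. LHCB4.1 read 2230, 3022, 2563 and 1903 at 12 h, against 2740, 4029, 3306 and 3149 at 2 h, with overlap, and missed the threshold (-0.45 ± 0.17, adjusted p = 0.055). It was called lower in 7 of 17 alternatives, among them without 12 h replicate 2 (-0.56) or 2 h replicate 1 (-0.53).

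The other falls were in CaS, a calcium-binding thylakoid protein (-0.92 ± 0.16), in PSAN (-0.71 ± 0.13) and PSAE-1 (-0.63 ± 0.17) of photosystem I, and in PSBY of photosystem II (-0.53 ± 0.13). The other rises were in subunits of the chloroplast NADH dehydrogenase-like complex, which carries electrons around photosystem I. NdhL read 431, 469, 329 and 414 at 12 h, against 265, 224, 208 and 232 at 2 h (0.77 ± 0.13, adjusted p = 4.7e-05), and NdhN read 448, 499, 355 and 404 at 12 h, against 225, 288, 240 and 277 at 2 h (0.69 ± 0.11, adjusted p = 1.1e-05). Both had all 12 h arrays above all 2 h arrays. NdhS rose by 0.32 ± 0.11 (adjusted p = 0.028) and missed the threshold without 12 h replicate 1 or 2 or 2 h replicate 2 or 4, with log2 changes of 0.28 to 0.31.

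Genes carried by the plastid's own genome gave no calls. All 69 tested probe sets lay between -0.41 and 0.31, 56 of them below 0 and 13 above, with a median of -0.09. For these, limma called none higher and none lower, while 28.6% of all probe sets were called and their median was 0.03. Of the other photosynthesis genes measured, the Calvin cycle genes RCA (-0.29), PRK (0.16) and SBPASE (-0.10) and the photorespiratory reductase HPR (0.33, adjusted p = 0.062) were not called. After quantile normalisation PRK and HPR were called higher, and so were 2 plastid-encoded genes. Plastid-encoded genes were called lower in other alternatives, 3 with the 12 h and 2 h arrays alone, 2 with array weights and 1 without 12 h replicate 3. HPR was called higher in 6 of 17 alternatives, among them without 12 h replicate 4 (0.41). CHL, a chloroplast lipocalin that guards thylakoid lipids, read 599, 651, 541 and 593 at 12 h, against 203, 285, 233 and 307 at 2 h (1.18 ± 0.12, adjusted p = 8.8e-09). TIL, the temperature-induced lipocalin of other membranes, read 267, 329, 331 and 276 at 12 h, against 567, 630, 683 and 629 at 2 h (-1.02 ± 0.09, adjusted p = 7.7e-10). The lipocalins thus differed in direction, each without overlap. They belong to no list and were chosen after their values were seen, as were THIC, PDC2, cICDH, MAP1C, MSRB5, the pentatricopeptide genes, YAO, IMP4 and RBL below.

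RNA polymerase subunits were lower at 12 h. Of 11 tested, 7 were lower, none was higher and 4 were not called. The share called was 63.6% against 28.6% of all probe sets, and the median -0.43 against 0.03. NRPA1 and NRPA2 are the largest subunits of RNA polymerase I, which transcribes ribosomal RNA. NRPA1 read 40.3, 57.5, 64.3 and 44.2 at 12 h, against 117, 152, 166 and 135 at 2 h (-1.24 ± 0.17, adjusted p = 2.1e-06), and NRPA2 read 120, 123, 145 and 136 at 12 h, against 247, 259, 320 and 282 at 2 h (-0.99 ± 0.10, adjusted p = 1.4e-08). Every 12 h array of both was below every 2 h array. NRPB12, a small subunit shared between polymerases, read 199, 132, 149 and 191 at 12 h, against 339, 354, 309 and 335 at 2 h (-0.95 ± 0.11, adjusted p = 1.9e-07). NRPB7 of polymerase II (-0.81 ± 0.18), NRPC2 (-0.50 ± 0.13) and NRPC1 (-0.43 ± 0.15) of polymerase III and NRPB6A (-0.36 ± 0.13) fell too, while NRPE7 (0.40) and NRPB6B (0.02) were not called. Leaving out 1 array gave 5 to 8 lower. NRPC1 was not called without 12 h replicate 2 or 3 or 2 h replicate 3 or 4, and NRPB6A without any array but 12 h replicate 1 and 2 h replicate 3. NRPE7 was called higher in 5 of 17 alternatives, among them without 12 h replicate 2 (0.54) or 2 h replicate 1 (0.50).

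Some named genes of ribosome making and of mitochondrial RNA outside any list were also lower. YAO, a nucleolar WD-repeat protein, read 124, 105, 118 and 133 at 12 h, against 267, 250, 284 and 242 at 2 h (-1.02 ± 0.10, adjusted p = 1.1e-08). IMP4, whose yeast counterpart processes ribosomal RNA, read 196, 155, 183 and 174 at 12 h, against 361, 334, 441 and 329 at 2 h (-0.98 ± 0.12, adjusted p = 2.3e-07). RBL averaged 82.5 ± 8.64 at 12 h and 182 ± 19.8 at 2 h (-1.0 ± 0.12). PPR596 and PPR336, pentatricopeptide repeat proteins, fell by 1.53 ± 0.13 and 1.06 ± 0.15. None of these 5 genes had overlapping groups.

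All called histone genes were lower at 12 h. Of 9 histone and chromatin genes tested, 5 were lower, none was higher and 4 were not called (55.6% called against 28.6% of all probe sets, median -0.47). HTB4, an H2B histone, read 362, 283, 298 and 305 at 12 h, against 665, 667, 523 and 557 at 2 h (-0.91 ± 0.10, adjusted p = 8.4e-08). HTB1 read 274, 271, 284 and 336 at 12 h, against 571, 545, 562 and 543 at 2 h (-0.90 ± 0.09, adjusted p = 8.5e-09). In both, each 12 h array was below each 2 h array. HTB2 (-0.85 ± 0.18), HTB11 (-0.66 ± 0.12) and HTR12, the histone H3 of centromeres (-0.47 ± 0.13), were the other 3. HTR12 was not called without 2 h replicate 2 (-0.35, adjusted p = 0.058).

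Of 9 cell division genes, 4 were lower, 2 were higher and 3 were not called (66.7% called against 28.6% of all probe sets, median -0.05). POLA3, a subunit of the polymerase alpha-primase that starts DNA strands, read 95.1, 97.6, 97.4 and 92.1 at 12 h, against 208, 178, 168 and 216 at 2 h (-0.89 ± 0.11, adjusted p = 4.4e-07). PRL, the MCM7 subunit of the replicative helicase, read 141, 179, 196 and 176 at 12 h, against 300, 299, 358 and 351 at 2 h (-0.86 ± 0.13, adjusted p = 9.1e-06). Both genes were lower on every 12 h array than on any 2 h array. The spindle checkpoint genes BUB3.1 and BUB3.2 each fell by 0.45, and BUB3.1 was not called without 12 h replicate 2 (-0.35). AUR2 and AUR1, kinases that act in mitosis, rose by 0.54 ± 0.10 and 0.45 ± 0.13. AUR2 read 96.9, 115, 136 and 116 at 12 h, against 79.9, 74.0, 69.7 and 74.6 at 2 h, without overlap.

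Some close relatives differed in direction, and those described here were picked for it. In the cytochrome P450 list 8 of 12 genes were higher, 1 was lower and 3 were not called (75% called against 28.6% of all probe sets, median 0.42). All called members belong to the CYP71B subfamily, so the counts do not describe the wider P450 family. CYP71B22 read 195, 283, 355 and 317 at 12 h, against 44.1, 47.3, 59.4 and 83.3 at 2 h (2.02 ± 0.22, adjusted p = 3.4e-08). CYP71B26 read 11.4, 21.1, 20.9 and 23.6 at 12 h, against 208, 245, 210 and 235 at 2 h (-2.78 ± 0.16, adjusted p = 1.0e-13). Neither had overlapping groups, and they stand on the same stretch of chromosome 3 in the TAIR10.1 gene order. CYP71B23 lies next to CYP71B22 with no other protein-coding gene between and rose by 0.82 ± 0.20. CYP71B24 lies 1 gene further on and rose by 0.67 ± 0.14. CYP71B26 follows 6 genes later, and CYP71B34, CYP71B35 and CYP71B36, which come next to it in a row, had log2 changes of 0.29, -0.01 and 0.19. Of the 8 members called higher, 5 were called without 12 h replicate 2, 12 h replicate 4 or 2 h replicate 3. CYP71B28, CYP71B29 and CYP71B34, with changes of at most 0.54, were the calls lost.

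MSRB5 and MSRB6, reductases that repair oxidised methionine, are direct neighbours on chromosome 4 and moved in opposite directions. MSRB5 read 169, 149, 91.3 and 97.2 at 12 h, against 28.5, 31.6, 13.5 and 24.5 at 2 h (1.80 ± 0.21, adjusted p = 1.4e-07). MSRB6 read 89.8, 78.1, 54.7 and 52.0 at 12 h, against 242, 376, 279 and 245 at 2 h (-1.84 ± 0.15, adjusted p = 2.6e-10). In MSRB5 the 12 h arrays were all above the 2 h arrays, in MSRB6 all below them. For both genes replicates 1 and 2 at 12 h were higher than replicates 3 and 4.

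Of 27 UDP-glycosyltransferases, enzymes that attach sugars to small molecules, 5 were higher, 3 were lower and 19 were not called (29.6% called, near the share over all probe sets). UGT85A5 read 45.1, 37.6, 36.9 and 54.8 at 12 h, against 25.7, 2.50, 16.6 and 8.31 at 2 h (1.08 ± 0.26, adjusted p = 0.0018), and its neighbours on chromosome 1, UGT85A2 (-0.04), UGT85A3 (-0.07) and UGT85A7 (0.21), were not called and were named after their values were seen. UGT85A4, much farther along the same chromosome, was called higher too (1.02), and UGT74D1 fell by 0.94 ± 0.13. Of 13 tested genes of mitochondrial respiration, 2 were higher, 1 was lower and 10 were not called (23.1% called, against 28.6% of all probe sets). The 1 that fell, CYTC-2, read 51.6, 46.9, 47.7 and 52.9 at 12 h, against 190, 157, 233 and 189 at 2 h (-1.65 ± 0.13, adjusted p = 2.1e-10). CYTC-1, the other cytochrome c gene, averaged 1127 ± 73.4 at 12 h and 1328 ± 138 at 2 h and missed the threshold (-0.23 ± 0.09, adjusted p = 0.063), though it was called in 4 of 17 alternatives, among them without 12 h replicate 1 (-0.27) or 2 h replicate 4 (-0.30). Of the ATP-citrate lyase genes, which make cytosolic acetyl-CoA, ACLA-3 read 343, 301, 311 and 352 at 12 h, against 184, 142, 197 and 159 at 2 h (0.89 ± 0.11, adjusted p = 3.2e-07). ACLA-1 (-0.13), ACLA-2 (0.06) and ACLB-1 (-0.13) were not called. Short oligonucleotides can bind RNA of near-identical relatives, and the share of such binding was not tested.

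**Figure D4:**
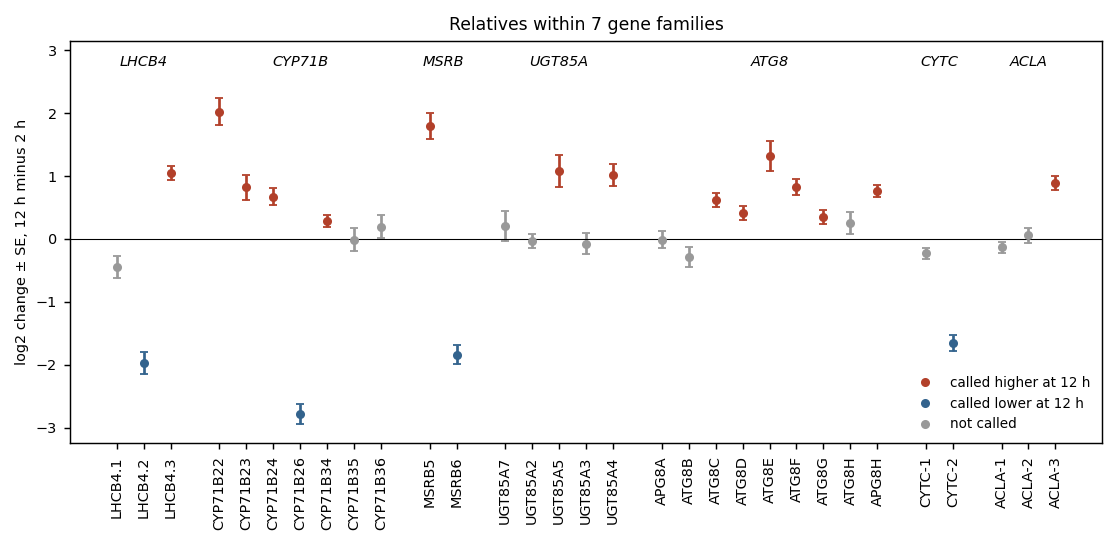
Log2 change ± SE of 12 h minus 2 h (y axis) for the members of 7 gene families (x axis), red where called higher at 12 h, blue where called lower and grey where not called. LHCB4.2 at -1.97 faces LHCB4.3 at 1.05, CYP71B26 at -2.78 faces CYP71B22 at 2.02, and MSRB6 at -1.84 faces MSRB5 at 1.80.

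Several enzymes outside these families rose. THIC, which makes the pyrimidine part of thiamine, read 677, 967, 669 and 605 at 12 h, against 203, 196, 248 and 193 at 2 h (1.71 ± 0.12, adjusted p = 9.4e-12). PDC2, a pyruvate decarboxylase, read 177, 136, 159 and 118 at 12 h, against 43.3, 40.1, 44.4 and 44.3 at 2 h (1.46 ± 0.22, adjusted p = 8.0e-06). The cytosolic isocitrate dehydrogenase cICDH averaged 1224 ± 91.5 at 12 h and 689 ± 19.6 at 2 h (0.81 ± 0.08), and the methionine aminopeptidase MAP1C averaged 840 ± 93.8 at 12 h and 354 ± 63.4 at 2 h (1.22 ± 0.13). Its relative MAP1A was called lower (-0.68, adjusted p = 2.9e-06) and MAP1D was not called (-0.03), both named after their values were seen. The 12 h arrays of THIC, PDC2, cICDH and MAP1C were all above the 2 h arrays.

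Small cysteine-rich defence peptides had 2 members higher, 1 lower and 4 not called of 7 (42.9% called, against 28.6% of all probe sets). LCR69, a plant defensin, read 2261, 2415, 3060 and 2028 at 12 h, against 957, 671, 830 and 890 at 2 h (1.52 ± 0.11, adjusted p = 2.2e-11). THI2.2, a thionin, read 37.6, 9.24, 16.7 and 37.1 at 12 h, against 81.7, 114, 115 and 174 at 2 h (-1.77 ± 0.33, adjusted p = 0.00012). The groups of both were apart, and the arrays of THI2.2 scattered widely within each group.

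Genes of growth and hormones moved in both directions. Among 27 genes that loosen the cell wall, 4 were higher, 5 were lower and 18 were not called (33.3% called, median -0.07). Among 25 that build it, 2 were higher, 4 were lower and 19 were not called (24% called). The share over all probe sets was 28.6%. EXPB1, an expansin, fell by 0.89 ± 0.13, and PMEPCRF, a pectin methylesterase, rose by 0.87 ± 0.12. TUB5 (0.69) and TUB9 (0.42), beta-tubulins, rose and ACT11, an actin, fell by 0.68, while 5 other cytoskeleton genes were not called (37.5% of 8 called). GH3.3, which conjugates auxin to amino acids, read 27.3, 28.3, 54.6 and 46.2 at 12 h, against 108, 68.7, 106 and 65.1 at 2 h (-0.91 ± 0.20, adjusted p = 0.00078), without overlap. RR16 and ARR15, related response regulators of cytokinin signalling, went opposite ways. RR16 read 281, 230, 247 and 298 at 12 h, against 140, 122, 144 and 192 at 2 h (0.77 ± 0.14, adjusted p = 0.00013). ARR15 read 98.6, 49.8, 76.2 and 113 at 12 h, against 135, 123, 166 and 152 at 2 h (-0.71 ± 0.20, adjusted p = 0.0079). The groups of each were apart, and ARR15 was not called without 12 h replicate 2, the lowest array (-0.52, adjusted p = 0.054).

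Stress genes showed no common direction. Of 7 abscisic acid and cold genes, 3 were higher and 4 were not called, COR27 being 1 of the 3 (42.9% called, against 28.6% of all probe sets). STZ, a zinc-finger repressor of stress responses, rose by 0.79 ± 0.16, and RD2 by 0.59 ± 0.10. The cold genes COR15A (-0.30), COR15B (0.30) and COR47 (0.25) were not called. Without 2 h replicate 1, COR15A was called lower (-0.62, adjusted p = 0.040). Of 11 cytosolic chaperones and co-chaperones, 2 were higher, 3 were lower and 6 were not called (45.5% called, against 28.6% of all probe sets). Hop2 (-0.85 ± 0.13) and Hop1 (-0.58 ± 0.09), which link HSP70 to HSP90, fell, and Fes1C (0.72 ± 0.10) and Fes1B (0.64 ± 0.14), which exchange the nucleotide of HSP70, rose.

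Markers of leaf cell types were measured only in part. Of 11 mesophyll markers 2 had a named probe set, RCA and LHCB4.2, and both were bright at either time, with means of 2452 at 12 h and 3015 at 2 h for RCA and those above for LHCB4.2. SPCH, STOMAGEN and FMA, genes of the list on stomata, were tested and not called, with log2 changes of -0.37, -0.22 and 0.05. SPCH, which starts the stomatal lineage, read 55.2, 57.8, 108 and 95.9 at 12 h, against 90.0, 83.8, 120 and 128 at 2 h, with overlap, and was called lower in 3 of 17 alternatives, among them without 12 h replicate 3 (-0.52, adjusted p = 0.021). The leaf polarity genes YAB3 (0.14), YAB5 (0.24) and PHV (0.14), the trichome gene TRY (-0.16) and the phloem exporter SWEET11 were not called either. The root, flower and epidermis markers had no named probe set, so the presence of such cells was not tested.

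The other times of the series place the 12 h and 2 h levels in context, as a description with no test. COR27 averaged 1.49 at 2 h, 4.14 at 4 h, 145 at 12 h, 2.94 at 24 h, 1.82 at 48 h and 1.60 at 96 h, so its high level was seen at 12 h alone. CCL averaged 273, 1015, 1567, 80.8, 99.9 and 97.4 at the 6 times, and GI averaged 56.6, 161, 11.7, 46.8, 41.7 and 44.2, highest at 4 h and lowest at 12 h. PWD averaged 148, 278, 409, 142, 132 and 130 at 2, 4, 12, 24, 48 and 96 h, and SCPL49 averaged 166, 305, 708, 161, 192 and 194. Both were intermediate at 4 h and were near the 2 h level from 24 h on. MGL averaged 66.9, 34.9, 13.7, 158, 150 and 152 at the same times, and CYTC-2 192, 140, 49.8, 286, 258 and 319. These genes were lowest at 12 h and stood above the 2 h level from 24 h on. HTB4 averaged 603, 598, 312, 453, 413 and 381, and NRPA1 averaged 143, 148, 51.6, 134, 105 and 97.2. Their 4 h levels were close to those at 2 h, and their 12 h levels were the lowest of the 6 times. LHCB4.2 averaged 2271, 1994, 567, 2666, 2591 and 2683, with its low level at 12 h alone, whereas LHCB4.3 averaged 324, 218, 694, 447, 503 and 736 and was as high at 96 h as at 12 h.

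**Figure D5:**
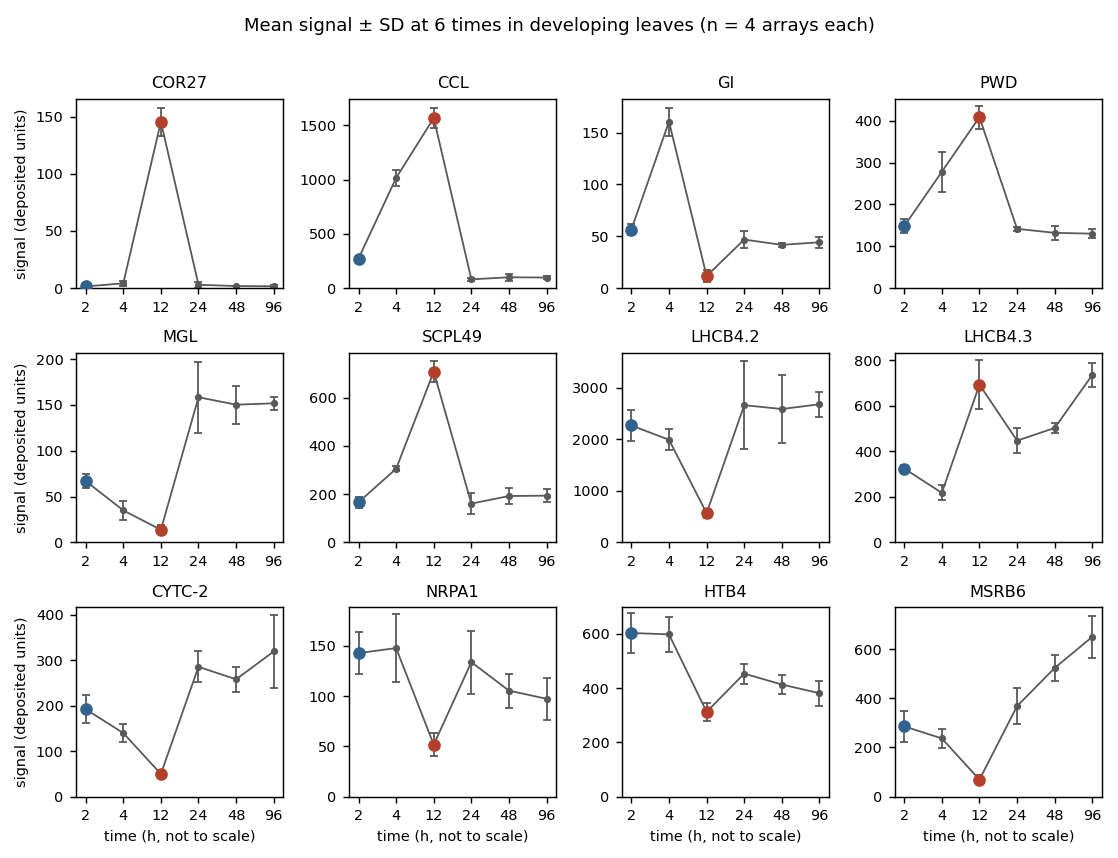
Mean signal ± SD in deposited units (y axes, from 0) at 2, 4, 12, 24, 48 and 96 h (x axes, not to scale) for 12 genes in developing leaves, n = 4 arrays at each time, with 12 h in red and 2 h in blue. COR27 stands at 145 at 12 h and at most 4.14 at the other times, and LHCB4.2 at 567 at 12 h and at least 1994 at the others.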

How the data were processed

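RNA from 26 arrays was considered, of which the comparison uses the 4 developing leaf arrays at 12 h and the 4 at 2 h. The authors deposited linear signal intensities, and the submitters' processing notes name MAS5 as the tool, with no version. Each column has a trimmed mean of 100, and no detection calls were used here. The table holds 22810 probe sets, 64 of them controls. Values were taken as log2(value + 16). Tests were limited to the 16154 probe sets that were brighter on at least 2 arrays than the array's 40th percentile, taken without controls. The fit used limma 3.58.1 in R 4.3.3 (lmFit, eBayes with a trend) on all 26 arrays in 7 groups, with Benjamini-Hochberg adjustment at 0.05, and was tested on simulated data with known changes. The number of arrays limits the precision, and 95% intervals of a log2 change reached 0.27 to either side at the median. Quality values were compared by exact permutation tests with scipy 1.17.1.

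Genes were named through the platform's annotation and the TAIR10.1 gene table: it assigns 1 gene to 13513 probe sets (13436 matched), several to 503 and none to the other 8794, controls included. Only probe sets with 1 gene were named, by locus code where the table has no other name. Gene order came from TAIR10.1, with no coordinates printed. Where a gene has several probe sets, lists used its brightest. The members of the comparison and the lists were chosen with earlier results of these data known. Of 77 lists, 50 were fixed from gene names or functions and 27 were drawn from gene names once the annotation had been read. Lists described by function only, such as ribosomal proteins, found no members. Of 244 genes on the lists fixed by name, 32 had a named probe set. Lists are described by counts and medians beside those of all probe sets, with no test of the list.

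Named were genes with 1 gene per probe set, an adjusted p below 0.05, no overlap of the groups and, in the brighter group, a mean over the probe sets' median (44.3): the 12 highest and 12 lowest changes, then, whatever their signal, the 3 largest changes among called members of each list. Members of lists with at most 25 tested genes, and of the clock, light, starch, sugar, stomata and marker lists, could be named whether called or not, and the few other genes named are marked as chosen after their values were seen. Alternatives were a pseudocount of 1 or 64, no filter, a stricter filter, the 8 arrays alone, quantile normalisation, array weights, a replicate block, leaving out each array, and, added after seeing the data, leaving out 2 arrays of other times with a high spike-in signal. Promoter motifs were not analysed here.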

Additional observations from a re-analysis of the deposited data

Results flagged for a closer look

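A set of 222 named genes, without NdhL, was examined for an array that stands apart from the other 3 of its group. The measure was Dixon's ratio of gap to range on the log2 scale, against its 95% critical value. Of 444 groups examined, 23 had such an array, and chance gives about 1 in 20. What sets these arrays apart was not tested.

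Among the 12 h arrays, replicate 4 was the highest for MGL at 21.2 (others 10.7 to 11.7), for Fes1C at 141 (others 113 to 117) and for UGT85A4 at 66.9 (others 51.8 to 52.7). It was the lowest for cICDH at 1088 (others 1256 to 1276) and for AT3G01060 at 49.8 (others 69.8 to 72.0). Replicate 2 was the highest for AT1G13650 at 11.8 (others 1.04 to 2.42) and for ETFQO at 96.0 (others 70.7 to 74.4), and the lowest for NRPB7 at 32.8 (others 78.8 to 90.4). Replicate 1 was the highest for Cpn60beta3 at 71.1 (others 59.6 to 61.2) and the lowest for UBP24 at 183 (others 212 to 216). Replicate 3 was the highest for RD2 at 532 (others 398 to 414) and for YAB3 at 226 (others 179 to 185).

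Among the 2 h arrays, replicate 2 was the lowest for ALDH6B2 at 131 (others 180 to 186) and for GTR2 at 125 (others 158 to 165). It was the highest for CYP71B29 at 20.0 (others 5.32 to 6.15), for TMT2 at 149 (others 90.6 to 96.7) and for COR47 at 245 (others 206 to 209). Replicate 1 was the lowest for BOB1 at 190.5 (others 212 to 216), for TRY at 41.4 (others 46.7 to 47.3) and for COR15B at 74.1 (others 133 to 144), and the highest for UGT85A7 at 23.8 (others 5.18 to 7.13). Replicate 3 was the lowest for AT2G23910 at 2.7 (others 13.0 to 15.6), and replicate 4 for PSAE-1 at 2355 (others 2957 to 3039).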

How the results depend on the processing

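In 17 alternatives, the counts of all called probe sets stayed within 1.5 times those reported, at 2025 to 2272 higher and 1925 to 2074 lower at 12 h when 1 array was left out, and with a replicate block at 2529 higher and 2301 lower. The replicate numbers were not taken to pair the arrays in the main fit. Correlations of same-numbered deviations were 0.33, 0.15, 0.07 and 0.01, all above 0, and those of unlike numbers ran from -0.27 to 0.13. Not every array correlated best with its own number. Whether replicates of the same number share an effect was not tested. The counts at 2-fold or more depended on the pseudocount, by its construction: a pseudocount of 1 gave 391 higher and 535 lower, and a pseudocount of 64 gave 98 higher and 127 lower. Leaving out 1 array gave 208 to 246 higher and 293 to 329 lower by at least 2-fold. Of 179 named genes that were called and compared, 144 were called in every alternative that tested them (16 or 17), 35 missed the threshold in at least 1, and 0 changed direction. Of those not called, 9 were called in at least 1. NdhL was not among the genes compared. Leaving out an array leaves 3 in its group and fewer arrays in the fit. Dim genes near the pseudocount, and changes below about the median half-width of 0.27, are limited by signal and by the number of arrays.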
